A study of Mus musculus with 16 samples.

Results

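Chromatin accessibility was followed at 9 genes of the P4-ATPase family of lipid flippases, Atp8a1, Atp8a2, Atp8b1, Atp8b2, Atp10a, Atp10b, Atp10d, Atp11a and Atp11b, in mouse prostate organoids. A region belonged to a gene when the gene's body was the nearest of any protein-coding gene within 100 kb, which gave 92 of the 86616 regions found in the 16 libraries. Of these 92 regions, 86 were called in at least 2 libraries and 6 in 1 library, and 7 of the 9 genes held at least 1. The genes were chosen by the number of called regions between genotypes: Atp10b carried far fewer called regions in SPOP-mutant than in Control organoids. Its values in that contrast, and those of its relatives, are therefore given as a description and without a test, whereas the response to androgen was not used to choose them and was tested.

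The assay was ATAC-seq, in which a transposase cuts and tags accessible DNA. There were 4 groups of 4 libraries: SPOP-mutant organoids (SPOPmut) with 10 nM dihydrotestosterone (DHT), an androgen, SPOPmut with the vehicle ethanol (EtOH), Control organoids with 10 nM DHT, and Control with EtOH. Treatment lasted 24 h in medium without mEGF, and all 16 libraries, Control included, carry the label sgNT. The SPOP allele, the way it was introduced and the number of lines behind a group are not given in the sources used here, and neither is the culture or animal that each library came from. The p-values below therefore measure only the spread between these libraries. The data were the authors' peak lists, so a region was called or not called in a library, and how many reads stood behind a call is unknown. The lists held 64192 ± 4832 peaks in SPOPmut with DHT, 63398 ± 3166 in SPOPmut with EtOH, 61014 ± 2406 in Control with DHT and 62302 ± 3421 in Control with EtOH (SD, n = 4 each).

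P4-ATPases use ATP to move phospholipids and some glycolipids from the outer or lumenal leaflet of a membrane to the cytosolic leaflet, and most of them need a partner protein of the CDC50 family (the Tmem30 genes) to leave the endoplasmic reticulum. The asymmetry they keep up holds phosphatidylserine on the inside of the cell and supports vesicle budding. Floppases of the ABC transporter family export lipids, and scramblases collapse the asymmetry in both directions. The human ATP10B protein has been described as an endolysosomal flippase of glucosylceramide and phosphatidylcholine.

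Labelled tissue and data were compared by marker genes. Of 8 luminal epithelial markers 7 had regions, with 52 to 57 called regions in SPOPmut DHT libraries, 52 to 55 in SPOPmut EtOH, 45 to 47 in Control DHT and 42 to 48 in Control EtOH. All 5 basal markers had regions, summing to 41 to 51 per library. Endothelial markers, all 5 with regions, summed to 13 to 18 in SPOPmut with DHT, 16 to 18 in SPOPmut with EtOH, 22 to 25 in Control with DHT and 24 to 27 in Control with EtOH. The 8 stromal markers summed to 7 to 14 per library, the immune markers to 5 to 12 (Adgre1 at 0) and the neuroendocrine markers to 2 to 9 (Insm1 at 0). By gene, 4 of 7 luminal markers tested were higher in SPOPmut (exact permutation, adjusted p under 0.05), as were 19.4% of all genes. Hoxb13 (-1.0 called regions) and Cdh1 (-0.25) went the other way without passing. Of 4 endothelial markers tested 3 were lower, as were 12.1% of all genes, and Pecam1 (-0.625) did not pass. Of 5 basal markers tested 2 were higher and 1 lower (Trp63, -3.625, exact permutation adjusted p = 0.018). Of 6 stromal and 2 neuroendocrine markers tested 1 each was lower, and of 2 immune markers 1 was higher. Sums of the basal, stromal, immune and neuroendocrine lists overlapped between genotypes. Luminal sums were higher and endothelial sums lower in every SPOPmut library than in every Control library, in the same direction as the genotype differences below at Atp8b1 and Atp10b. The part of cell composition in those differences was not tested, and in bulk organoids fewer cells of a type cannot be told apart from less accessible chromatin per cell.

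Promoter sequences show what lies under the regions that stayed open throughout. RefSeq windows of 300 bases (250 before to 50 after a transcript start, build GRCm38.p6) were matched for 5 of the 9 symbols, with 6 windows for Atp8a1, Atp8b2, Atp10a, Atp11a and Atp11b. Windows for Atp8a2, Atp8b1, Atp10b and Atp10d were not used here. All 300 bases of each of the 6 windows lay inside a region called in all 16 libraries. The 3 windows printed are read 5′ to 3′ on the gene's strand. That of Atp11b (chr3:35753813-35754112, plus strand) is from a gene with almost no change in called regions between groups. That of Atp8a1 (chr5:67847382-67847681, minus strand) is from a gene with a constant start and changing intragenic regions. That of Atp10a (chr7:58657952-58658251, plus strand) is from the closest relative of Atp10b with a window. Capitals mark the only motif found.
Atp11b: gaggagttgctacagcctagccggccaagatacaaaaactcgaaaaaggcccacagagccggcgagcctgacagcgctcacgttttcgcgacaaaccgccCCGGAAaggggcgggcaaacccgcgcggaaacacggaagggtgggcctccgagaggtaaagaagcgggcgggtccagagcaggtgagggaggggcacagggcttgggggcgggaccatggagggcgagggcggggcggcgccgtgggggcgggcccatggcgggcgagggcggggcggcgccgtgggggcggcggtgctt
Atp8a1: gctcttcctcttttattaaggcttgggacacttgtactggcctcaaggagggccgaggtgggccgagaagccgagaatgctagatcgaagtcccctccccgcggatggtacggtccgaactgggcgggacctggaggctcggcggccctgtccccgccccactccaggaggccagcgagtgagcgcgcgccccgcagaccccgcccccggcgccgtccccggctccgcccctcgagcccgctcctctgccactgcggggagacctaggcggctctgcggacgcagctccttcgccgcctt
Atp10a: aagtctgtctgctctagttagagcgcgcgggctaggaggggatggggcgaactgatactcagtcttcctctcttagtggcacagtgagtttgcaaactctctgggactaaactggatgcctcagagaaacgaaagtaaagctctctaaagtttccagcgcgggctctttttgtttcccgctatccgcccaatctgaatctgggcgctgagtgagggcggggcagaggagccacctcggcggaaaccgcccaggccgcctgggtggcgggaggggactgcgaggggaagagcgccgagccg

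These starts are rich in G and C: 70.7% in the Atp11b window, 70.3% in that of Atp8a1 and 59.3% in that of Atp10a, against a median of 52.7% over 32851 mouse promoter windows. Both strands were searched for AGAACA as the androgen receptor half-site, TGTTTAC as the forkhead motif, TGANTCA as the AP-1 motif, CCGGAA as the ETS motif, AGATAA as the GATA motif, CAGCTG as the E-box and TATAAA as the TATA box. The single match in the 6 windows was CCGGAA at base 101 of the Atp11b window. Of all windows 19.0% hold the androgen receptor half-site, 3.65% the forkhead motif, 7.81% the AP-1 motif, 14.9% the ETS motif, 11.2% the GATA motif, 16.3% the E-box and 13.6% the TATA box. The other motifs' letters are absent from these windows, and regions away from the starts were not searched.

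Atp10b (gene 319767, chromosome 11, 43012164 to 43262285, mm10) had 17 tested regions, 13 inside the gene body and 4 outside it. In SPOPmut with DHT 2, 2, 2 and 3 of them were called in libraries 1 to 4, and in SPOPmut with EtOH 3 in each library. In Control with DHT 12, 9, 14 and 12 were called, and in Control with EtOH 15, 14, 13 and 16. Every SPOPmut library lay below every Control library of either treatment. The means were 2.25 ± 0.5 and 3.0 ± 0 in SPOPmut and 11.8 ± 2.06 and 14.5 ± 1.29 in Control, with DHT and with EtOH in that order (SD, n = 4). Averaged over treatments the difference, SPOPmut minus Control, was -10.5 called regions, the fifth lowest of 11212 genes. This is the value on which the gene was chosen. Counts of the genotypes did not overlap at 24.6% of all genes in DHT (8.53% lower) and 21.8% in EtOH (8.71% lower).

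**Figure D1:**
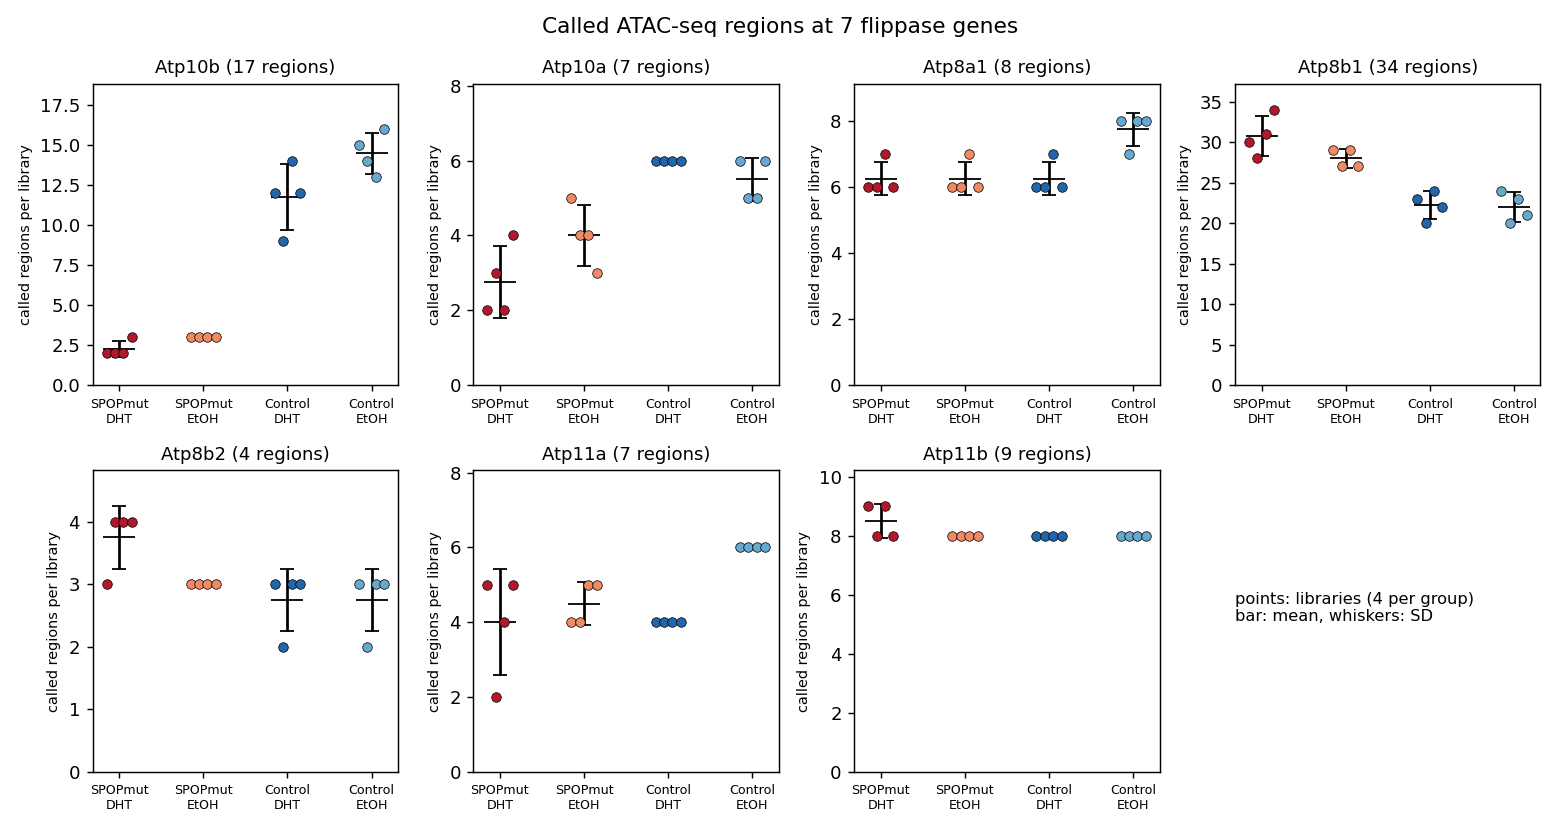
Number of called ATAC-seq regions per library (y axis, linear from 0) at the 7 flippase genes with regions, by group (x axis). Points are libraries (4 per group), the bar is the mean and the whiskers the SD; at Atp10b the SPOPmut libraries sit at 2 to 3 and the Control libraries at 9 to 16, while at Atp8b1 SPOPmut libraries sit at 27 to 34 and Control libraries at 20 to 24.

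Few parts of the Atp10b locus stayed called in the mutant. Only region 1, 72.6 kb below the lower end of the gene body (42939141 to 42940006), and region 7, inside it (43125657 to 43127065), were called in all 16 libraries, as were 48.9% of all tested regions. Region 2 (42944467 to 42945010) was called in 1 of 4 SPOPmut DHT libraries, all 4 SPOPmut EtOH libraries, 3 of 4 Control DHT libraries and all 4 Control EtOH libraries. The other 14 were called in no SPOPmut library. Of these, regions 3, 4, 5, 9, 10 and 12 were called in all 8 Control libraries. Regions 8, 13, 15 and 16 were called in all 4 Control EtOH libraries and in 2 or 3 of 4 Control DHT libraries. Regions 6, 11 and 17 were called in 2 Control EtOH libraries only, and region 14 in 3 Control DHT libraries only.

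**Figure D2:**
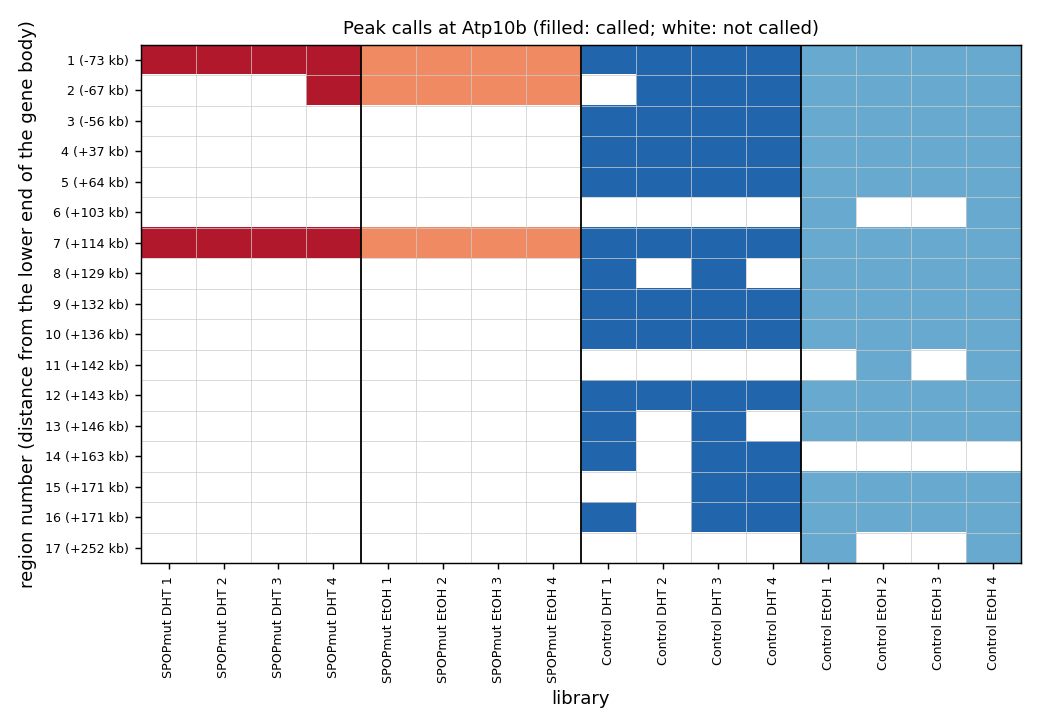
Peak calls at the 17 Atp10b regions (rows, with the distance in kb from the lower-coordinate end of the gene body) in the 16 libraries (columns). Filled cells are calls; apart from regions 1, 2 and 7, no cell is filled in any SPOPmut library.

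Counted as regions called in all 4 libraries of a group and in none of the other, Atp10b lost 6 regions between genotypes in DHT and 10 in EtOH, the 6 being among the 10, and gained none. Over all 80352 regions, 10.6% separated the genotypes in DHT (4.22% lost) and 9.2% in EtOH (4.36% lost), and nothing is read from the Atp10b counts, since this contrast chose the gene. The regions of Atp10b were narrow, with a median width of 478 bp against 667 bp over all tested regions. They were weak where called, with a median within-list percentile of peak significance of 18.3 against 38.3. This was not particular to Atp10b: the medians were 461 bp and 17.5 at Atp11a, and 406.5 bp and 24.5 at Atp8b2. Those of Atp10a, Atp8a1, Atp8b1 and Atp11b were wider and higher than those of Atp10b.

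The 2 regions that stayed called could be placed among the 39300 regions called in all libraries, by ranking the authors' -log10 p within each library (0 lowest, 100 highest). Region 7 ranked at percentiles 19.99, 14.0, 14.0 and 11.95 in SPOPmut DHT libraries and 14.9, 11.6, 9.31 and 9.44 in SPOPmut EtOH libraries. It ranked at 93.0, 91.9, 91.8 and 92.6 in Control DHT libraries and 95.9, 91.4, 94.97 and 92.8 in Control EtOH libraries. Region 7 was thus among the strongest of these regions in Control and among the weakest in SPOPmut, with no overlap. Ranks without overlap in both treatments were higher in SPOPmut at 18.1% of the 39300 regions and lower at 17.7%. Region 1 averaged 9.79 ± 2.58 and 12.9 ± 4.68 in SPOPmut and 61.6 ± 2.91 and 67.3 ± 2.86 in Control, with DHT and EtOH in that order (SD, n = 4). So a call that persisted in every library still stood at a much lower rank in SPOPmut. These ranks are a description, since they come from the contrast that chose the gene.

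Lower counts in SPOPmut extended beyond Atp10b. Within 500 kb of its body lay 24 further tested regions. Between genotypes 5 of them were lost in DHT and 4 in EtOH, where 4.22% and 4.36% of all tested regions were. Of the 24, 3 were lost in both and none gained, and 7 were called in all 16 libraries. The 1 region on the lower-coordinate side was lost in EtOH. The other 23 lay on the higher-coordinate side, where the nearest protein-coding genes are Pttg1, Slu7 and C1qtnf2. Pttg1, which encodes securin, averaged 1.5 ± 0.577 and 2.0 ± 0.816 called regions in SPOPmut and 4.0 ± 1.15 and 4.5 ± 0.577 in Control, with DHT and EtOH in that order (SD, n = 4). The secreted-protein gene C1qtnf2 averaged 0.75 ± 0.957 and 1.5 ± 0.577 in SPOPmut and 3.75 ± 0.5 and 3.5 ± 1.0 in Control. Ccnjl, a cyclin-like gene, averaged 2.25 ± 0.5 and 2.0 ± 0 in SPOPmut and 4.5 ± 0.577 and 3.75 ± 0.5 in Control. The means of all 3 were lower in SPOPmut, like those of Atp10b. Over all genes tested, 12.1% were lower in SPOPmut (exact permutation, adjusted p under 0.05).

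Fabp6, the ileal bile acid binding protein gene, was lower as well, averaging 0.75 ± 0.5 and 1.0 ± 0 in SPOPmut and 2.0 ± 0 and 1.25 ± 0.5 in Control. Slu7 had a single tested region. Farther out the counts were alike: Pwwp2a had the same means in both genotypes (2.75 ± 0.5 with DHT and 2.0 ± 0 with EtOH), and Ttc1 had 2.0 ± 0 in each of the 4 groups. On the lower side the GABA receptor subunit genes Gabra6 and Gabrb2 had no regions. Chromosome 11 as a whole held a share of called regions that fell by 4.92% in SPOPmut relative to Control, and after subtracting the count each chromosome's call rate predicts, the Atp10b difference was -10.3.

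**Figure D3:**
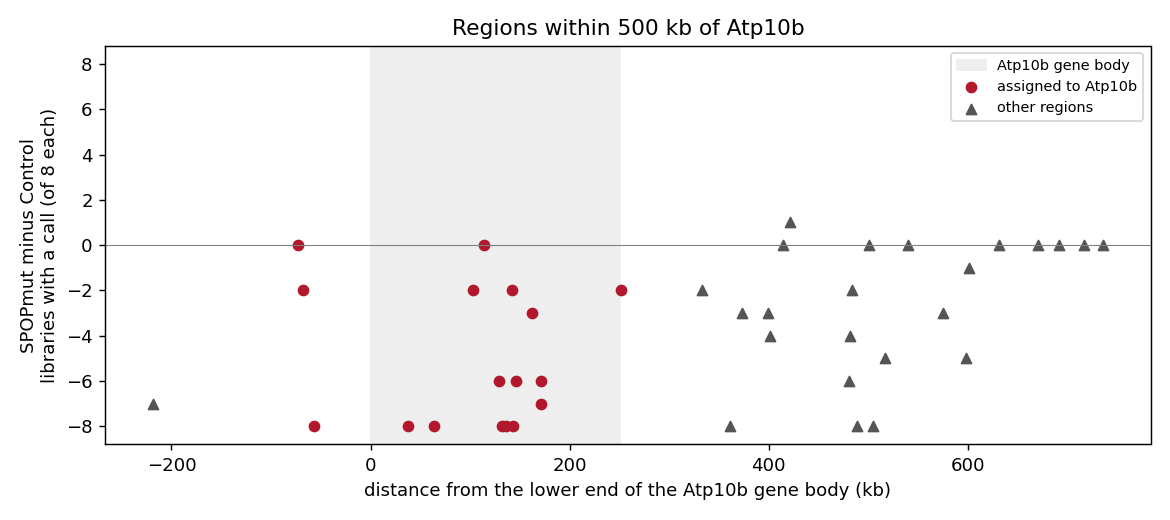
SPOPmut minus Control number of libraries with a call (y axis, 8 libraries per genotype) for tested regions within 500 kb of Atp10b, against distance from the lower-coordinate end of its gene body (x axis, kb). Circles are regions assigned to Atp10b and triangles other regions; the grey band is the gene body, and 6 circles lie at -8.

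Genes on other chromosomes followed the same course over the 16 libraries. Among 4948 genes with at least 5 tested regions, the number of called regions correlated best with that of Atp10b at the DNA repair gene Xrcc2 (Pearson r = 0.984), the metalloprotease gene Pappa (0.982), the zinc finger gene Zfp462 (0.982), the protocadherin gene Pcdh19 (0.98) and Plxdc2 (0.979). Zfp462 averaged 0 ± 0 in both SPOPmut groups, 7.5 ± 0.577 in Control with DHT and 8.75 ± 0.5 in Control with EtOH. Pcdh19 averaged 1.0 ± 0 in both SPOPmut groups, 7.75 ± 1.71 in Control with DHT and 10.8 ± 0.5 in Control with EtOH (SD, n = 4). All 5 were picked for this likeness, and the 16 points fall into 2 groups by genotype. Within the family, the counts of Atp10a correlated with those of Atp10b at r = 0.828 and those of Atp8b1 at -0.835 over the same 16 libraries.

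With DHT, Atp10b did not pass the test over all genes. DHT minus EtOH, averaged over genotypes, was -1.75 called regions (exact permutation p = 0.0184, Benjamini-Hochberg adjusted p = 0.119), being -0.75 in SPOPmut and -2.75 in Control. Of 11212 genes 959 passed (8.55%), and of the 7 flippase genes tested 0 did; 2 of them, Atp10b and Atp11a, had an unadjusted p under 0.05, as did 2608 of all genes. The Atp10b call depended on the setting: it passed at equal list length (-2.5, exact permutation adjusted p = 0.00876), as a share of called regions (adjusted p = 0.0496), without SPOPmut DHT library 4 (adjusted p = 0.0353) and without Control DHT library 3 (adjusted p = 0.0465). Over its 24 alternatives the exact permutation adjusted p ran from 0.00876 to 0.426. The difference of the DHT effects, SPOPmut less Control, was 2.0 (exact permutation adjusted p = 1.0). No gene of the 11212 passed this test (0.0%), 799 had an unadjusted p under 0.05, and among the 7 flippase genes none did.

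Atp10a (gene 11982, chromosome 7, 58656142 to 58830244, plus strand), a phosphatidylcholine flippase in human cells and the relative of Atp10b with the most similar counts, also had fewer called regions in SPOPmut. Of its 7 tested regions 2, 3, 2 and 4 were called in SPOPmut DHT libraries and 5, 4, 4 and 3 in SPOPmut EtOH libraries. In Control DHT libraries 6 were called in each, and in Control EtOH libraries 6, 5, 5 and 6. The genotypes did not overlap in DHT and shared the value 5 in EtOH. Region 3 (58676892 to 58677448) was called in 0 and 1 of 4 SPOPmut libraries with DHT and EtOH and in all 8 Control libraries. Region 8, 11 kb above the gene (58841123 to 58841385), was called in all 4 Control DHT libraries and in no other library, and so was gained with DHT in Control, where 2.93% of all regions were.

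Chromosome 7 as a whole held a share of called regions that was 8.41% higher in SPOPmut than in Control. The Atp10a genotype difference was -2.38 before and -2.98 after the chromosome correction. The region over the Atp10a start (region 2) was called in all 16 libraries, and so was region 5 (58800603 to 58801407). Region 5 ranked at 51.7 ± 2.26 in SPOPmut with DHT and 67.2 ± 2.58 in SPOPmut with EtOH, against 65.6 ± 2.69 in Control with DHT and 74.1 ± 2.2 in Control with EtOH (SD, n = 4). Its ranks with DHT lay below those with EtOH in both genotypes, without overlap. Such a lower rank in both genotypes was found at 9.64% of the 39300 regions called in all libraries, and a higher one at 8.0%. The count of called regions at Atp10a did not pass for DHT (-0.375, exact permutation adjusted p = 0.991).

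Atp8b1 (gene 54670, chromosome 18, 64528979 to 64661272) had the most regions and the opposite genotype difference. Its protein is a canalicular flippase whose loss in humans causes familial intrahepatic cholestasis. Of 34 tested regions 30, 28, 31 and 34 were called in SPOPmut DHT libraries and 29, 27, 29 and 27 in SPOPmut EtOH libraries. In Control DHT libraries 23, 20, 24 and 22 were called, and in Control EtOH libraries 24, 20, 23 and 21. Every SPOPmut library lay above every Control library, with a mean difference of 7.25 called regions, at a gene whose chromosome share fell by 1.92% in SPOPmut. Higher counts without overlap were found in 16% of genes in DHT and 13.1% in EtOH.

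The Atp8b1 regions that separated the genotypes were spread over the gene and the 100 kb above it. Regions 2 (64549352 to 64549620) and 37 (64756621 to 64757327) were called in every one of the 8 SPOPmut libraries and never in Control. Region 24 was gained in DHT only, being called in the 4 SPOPmut DHT libraries and nowhere else. Regions 10 and 26 were gained in EtOH only: region 10 was called in all 8 SPOPmut libraries and 1 Control DHT library, and region 26 in 7 SPOPmut libraries. Gained regions made up 6.41% of all regions in DHT and 4.84% in EtOH. Region 37 lies close to the 100 kb limit, 95.7 kb from the gene, and region 38 (99.4 kb, called in all 16 libraries) is the last inside it; the next regions out, at 102.7 and 105.9 kb, were called in 1 and 2 libraries.

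**Figure D4:**
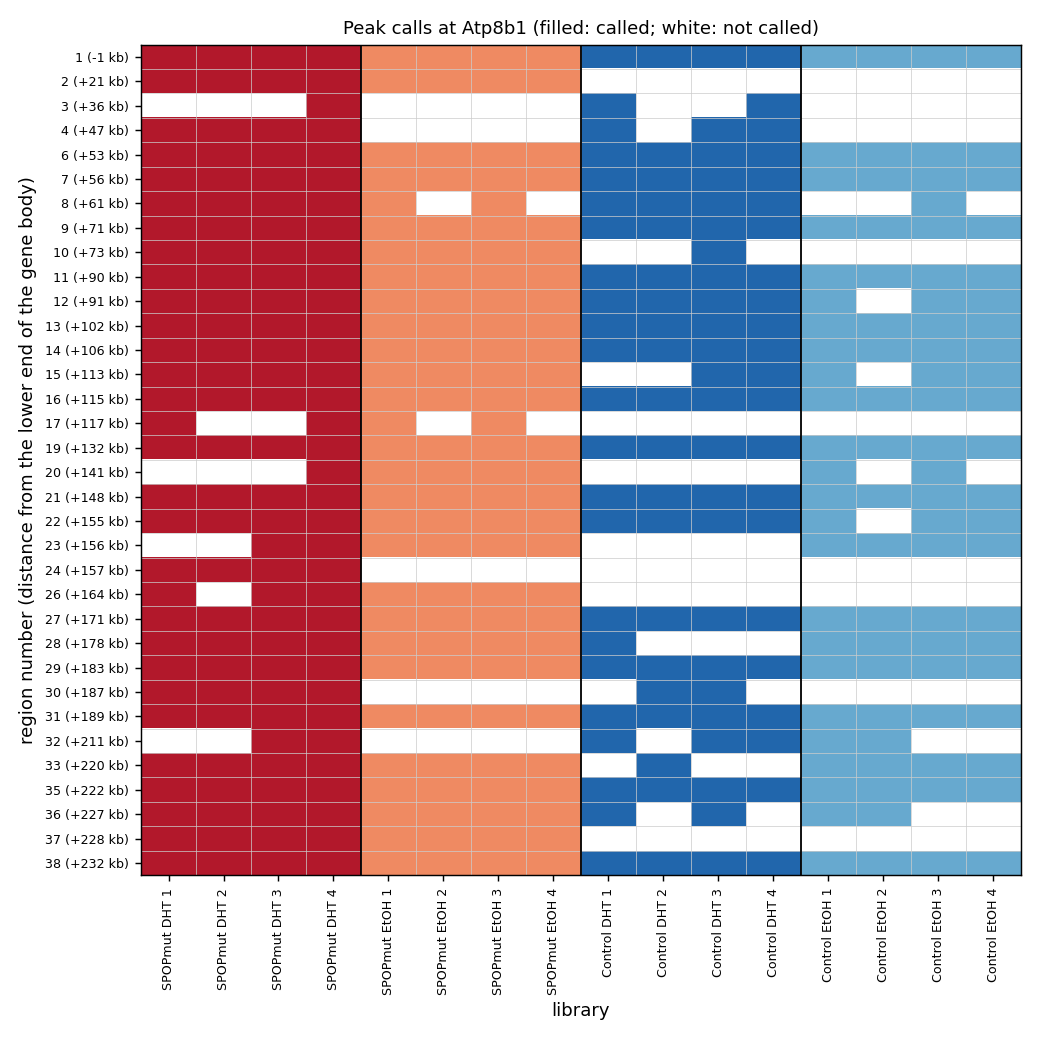
Peak calls at the 34 tested Atp8b1 regions (rows, with the distance in kb from the lower-coordinate end of the gene body) in the 16 libraries (columns). Filled cells are calls; regions 2 and 37 are filled in all 8 SPOPmut libraries and in no Control library, and region 4 in 7 DHT libraries and no EtOH library.

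Atp8b1 held 34 of the 86 tested regions, among them the one with the lowest p for DHT in the family. Region 4, inside the gene (64576137 to 64576800), was called in 4 of 4 SPOPmut libraries with DHT and 0 of 4 with EtOH, and in 3 of 4 Control libraries with DHT and 0 of 4 with EtOH. It had the lowest p of the 86 regions in the stratified exact test (p = 0.00204) and did not pass over all regions (exact test, adjusted p = 0.0717), where 1422 of 80352 did (1.77%, with 1.51% higher and 0.259% lower). Regions 4, 24 and 30 were gained with DHT in SPOPmut, where 6.67% of all regions separated (4.7% gained). Region 23 (64684820 to 64685621) was lost with DHT in Control, where 4.88% separated (1.96% lost); it was called in 2 of 4 SPOPmut DHT and all 4 SPOPmut EtOH libraries. Counted over the gene, DHT minus EtOH was 1.5 called regions (exact permutation adjusted p = 0.494), 2.75 in SPOPmut and 0.25 in Control. This count passed as a share of called regions (exact permutation adjusted p = 0.0435) and after the chromosome correction (1.76, adjusted p = 0.0262). Under these settings 2306 and 2394 of all genes passed in that order, against 959 in the main setting. The difference turned to -0.25 when only peaks of at least 2 times the smallest deposited signal were used. Over 24 alternatives the exact permutation adjusted p ran from 0.0262 to 1.0.

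Among the 15 Atp8b1 regions called in every library, some ranks moved with DHT in both genotypes. Without overlap between DHT and EtOH libraries in either genotype, 6 of the 15 ranked higher with DHT and 1 lower. Over all 39300 regions called in every library, 8.0% ranked higher and 9.64% lower in this way. The regions named next were chosen after their values were seen. Region 6 (64581473 to 64583222) ranked at 95.3, 96.9, 96.7 and 95.5 in SPOPmut with DHT and 28.3, 32.3, 28.5 and 37.1 in SPOPmut with EtOH. In Control it ranked at 81.9, 85.4, 87.9 and 84.2 with DHT and 23.3, 14.6, 4.92 and 24.1 with EtOH. Of all 39300 regions, 99.8% had a smaller DHT minus EtOH change than this one in SPOPmut and 99.9% in Control. Within the gene, region 6 is the second region above region 4.

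Region 29, 50.3 kb above the gene (64711143 to 64712047), behaved alike. It averaged 69.6 ± 1.96 with DHT and 8.39 ± 2.5 with EtOH in SPOPmut, and 49.0 ± 2.68 with DHT and 7.14 ± 3.49 with EtOH in Control (SD, n = 4). Region 11 averaged 91.7 ± 1.28 with DHT and 80.0 ± 0.815 with EtOH in SPOPmut, and 79.6 ± 2.76 with DHT and 43.6 ± 7.59 with EtOH in Control. Region 13 (64630932 to 64631610) was the one that ranked lower with DHT, averaging 29.6 ± 4.47 with DHT and 47.2 ± 8.15 with EtOH in SPOPmut, and 2.98 ± 1.77 with DHT and 17.4 ± 4.73 with EtOH in Control. By genotype, region 35 (64750577 to 64751580) averaged 52.4 ± 3.33 and 40.2 ± 6.54 in SPOPmut and 4.71 ± 3.42 and 2.25 ± 0.815 in Control, with DHT and EtOH in that order. Regions 6, 11 and 13 also ranked higher in SPOPmut than in Control under both treatments without overlap, so the regions that moved with DHT and those that differed between genotypes were not separate sets.

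**Figure D5:**
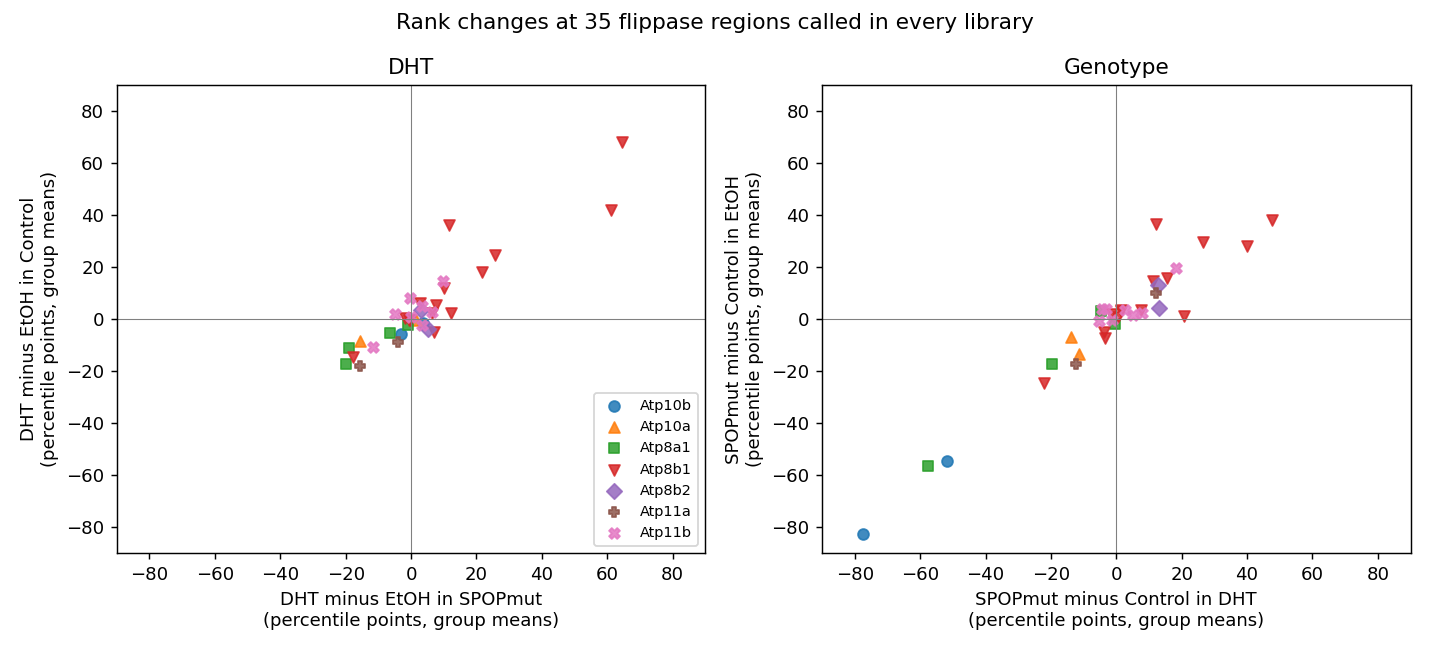
Changes in rank of the 35 flippase regions called in all 16 libraries, as differences of group means in percentile points among 39300 regions. Left, DHT minus EtOH in SPOPmut (x axis) against Control (y axis); right, SPOPmut minus Control in DHT (x axis) against EtOH (y axis). Atp8b1 regions 6 and 29 lie at the upper right of the left plot, and both Atp10b regions and region 4 of Atp8a1 at the lower left of the right plot.

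Over all 35 such flippase regions, 6 ranked higher with DHT in both genotypes, all 6 at Atp8b1, and 5 lower, 1 each at Atp10a, Atp8a1, Atp8b1, Atp11a and Atp11b, against 8.0% and 9.64% of the 39300 regions. By genotype 7 ranked higher in SPOPmut under both treatments, 6 of them at Atp8b1 and 1 at Atp8b2, and 6 lower, against 18.1% and 17.7% of the 39300 regions, so that these shares were near those of all regions. Neither Atp10b region changed rank with DHT without overlap. The largest DHT change of the Atp10b regions was 5.79 percentile points, and that of the Atp8b1 regions 68.1.

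Atp8a1 (gene 11980, chromosome 5, 67618139 to 67847484, minus strand), which encodes a phosphatidylserine flippase of the Golgi and endosomes, changed little in count. Of its 8 regions 6, 6, 7 and 6 were called in the libraries of SPOPmut with DHT, of SPOPmut with EtOH and of Control with DHT alike, and 8, 7, 8 and 8 in those of Control with EtOH. DHT minus EtOH was -0.75 (exact permutation adjusted p = 0.308), being 0 in SPOPmut and -1.5 in Control. The call appeared with peaks of at least 2 times the smallest signal (-2.0, exact permutation adjusted p = 0.0172) and with at least 50% of a region covered (-1.5, adjusted p = 0.0474), the adjusted p running from 0.0172 to 0.673 over 24 alternatives. Region 1 (67673872 to 67674412) was called in 1 and 0 of 4 SPOPmut libraries with DHT and EtOH and in all 8 Control libraries, and region 8 in all 8 SPOPmut libraries, 0 of 4 Control DHT libraries and 3 of 4 Control EtOH libraries.

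Beneath the steady count of Atp8a1, 2 intragenic regions ranked lower in SPOPmut without overlap under both treatments. Region 4 (67842152 to 67842973), chosen after its values were seen, ranked at 8.74, 5.86, 13.7 and 10.1 in SPOPmut DHT libraries and 10.1, 24.1, 15.1 and 14.5 in SPOPmut EtOH libraries. In Control it ranked at 69.5, 63.1, 65.6 and 70.4 with DHT and 72.7, 71.7, 68.3 and 77.2 with EtOH. The genotypes did not overlap in either treatment. The region over the start (region 6, under the window printed above) averaged 91.0 ± 4.44 and 91.8 ± 4.26 in SPOPmut and 91.4 ± 2.39 and 93.8 ± 0.183 in Control, with DHT and EtOH in that order, and overlapped in all comparisons. Region 5, next to it, ranked lower in SPOPmut than in Control under both treatments and lower with DHT in both genotypes, at 39.9 ± 5.22 against 59.9 ± 1.31 with EtOH in SPOPmut and 59.7 ± 8.17 against 77.0 ± 3.97 in Control (SD, n = 4).

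Atp11a (gene 50770, chromosome 8, 12757016 to 12868728, plus strand) encodes a plasma membrane flippase of phosphatidylserine and phosphatidylethanolamine. Of its 7 tested regions 5, 2, 4 and 5 were called in SPOPmut DHT libraries and 4, 4, 5 and 5 in SPOPmut EtOH libraries, against 4 in every Control DHT library and 6 in every Control EtOH library. The Control groups did not overlap between treatments, lower with DHT as in 4.44% of genes (5.16% higher, 9.61% in either direction), and in EtOH the SPOPmut libraries lay below the Control libraries. In SPOPmut the treatments overlapped; there 13.7% of genes had counts that did not (9.14% higher, 4.53% lower). DHT minus EtOH was -1.25 (exact permutation p = 0.0192, adjusted p = 0.124), which passed at equal list length (-2.12, exact permutation adjusted p = 0.0234), as a share (adjusted p = 0.0415) and after the chromosome correction (adjusted p = 0.0407); over 24 alternatives the adjusted p ran from 0.0234 to 0.675. Regions 4 (12755362 to 12755619) and 6 (12768788 to 12769149) were lost with DHT in Control. Region 1, 26 kb below the gene, was called in all 8 Control and no SPOPmut library.

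Counts of called regions at Atp11b and Atp8b2 were nearly constant, while some ranks moved. Region 3 of Atp11b ranked lower with DHT in both genotypes without overlap. Region 3 of Atp8b2 ranked higher in SPOPmut than in Control under both treatments without overlap. Atp11b (gene 76295, chromosome 3, 35754044 to 35856276, plus strand), an endosomal relative of Atp11a, had 8 of its 9 regions called in all 16 libraries; 9, 8, 9 and 8 were called in SPOPmut DHT libraries and 8 in each of the other 12 libraries. Its DHT difference was 0.25 (exact permutation adjusted p = 0.833). Atp8b2 (gene 54667, chromosome 3, 89939481 to 89963338, minus strand), a phosphatidylcholine flippase in human cells, had 3, 4, 4 and 4 of 4 regions called in SPOPmut with DHT and 3 in each SPOPmut EtOH library. In Control 3, 2, 3 and 3 were called with DHT and 3, 2, 3 and 3 with EtOH. DHT minus EtOH was 0.375 (exact permutation adjusted p = 0.678). Region 4, 8.54 kb above Atp8b2 (89971750 to 89972006, 257 bp), was called in all 4 SPOPmut DHT libraries and in none of the other 12.

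Atp8a2 and Atp10d had no regions under the rule. Atp8a2 (chromosome 14, 59647531 to 60086914), a phosphatidylserine flippase of neurons and photoreceptors, had no region nearer to it than to another gene; the nearest lay 34.1 kb away and went to Shisa2. Atp10d (chromosome 5, 72203329 to 72298771) is annotated as a transcribed pseudogene in the table used, so the rule for protein-coding genes passed its regions to Commd8 and Corin. Of 5 such regions 3 were called in all 16 libraries, 1 in 5 libraries and 1 in 1 library, so chromatin in the Atp10d body was open in every library.

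Across the 7 genes with regions, 35 of 86 regions (40.7%) were called in all 16 libraries, against the 48.9% of all tested regions, and 49 (57.0%) lay inside a gene body, against 53.3%. Their median width was 671.5 bp, against 667 bp. The median DHT minus EtOH of the 7 genes was -0.375 called regions and the median genotype difference -0.75, both 0 over all 11212 genes tested. Between treatments 4 of the 86 regions were gained and 0 lost with DHT in SPOPmut, where 4.7% and 1.98% of all regions were, and 1 gained and 3 lost in Control, where 2.93% and 1.96% were. Between genotypes 5 were gained and 9 lost in DHT, where 6.41% and 4.22% of all regions were, and 4 gained and 12 lost in EtOH, where 4.84% and 4.36% were. Atp10b held 6 and 10 of those lost, and nothing is read from these genotype counts.

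Among 33 other genes of membrane lipid transport that could be tested, of 51 listed, 11 rose and 2 fell in SPOPmut relative to Control, where 19.4% and 12.1% of all genes did (31.5% in either direction). After the chromosome correction 9 rose and 5 fell. Among 6 other P4-ATPase genes, Atp9a, an endosomal member that works without CDC50, averaged 5.25 ± 0.957 and 5.0 ± 0 in SPOPmut and 4.0 ± 0 and 3.75 ± 0.5 in Control, with DHT and EtOH in that order (n = 4 each, exact permutation adjusted p = 0.0102). Atp8b4 rose by 1.12 (exact permutation adjusted p = 0.0344), 4 did not pass and none fell. Both lie on chromosome 2, and both calls ended after the chromosome correction (0.326 at Atp9a and 0.0476 at Atp8b4, exact permutation adjusted p = 0.267 and 0.906), these being the highest adjusted p over 24 alternatives and 0.00324 and 0.00969 the lowest. The Atp8b4 difference was -0.625 with the stronger peaks and -0.375 with 50% of a region covered.

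The CDC50 subunit gene Tmem30b rose by 0.75 (exact permutation adjusted p = 0.0358), a call that ended within 25 kb of the gene, where the difference was 0, with the stronger peaks (adjusted p = 0.270) and with regions called in 1 library kept (adjusted p = 0.0825), while Tmem30a and Tmem30c had 1 region each. Among 3 P5-ATPase genes tested, the lysosomal polyamine exporter gene Atp13a2 rose by 1.12 (exact permutation adjusted p = 0.0102), or by 0.25 with the stronger peaks (adjusted p = 0.652, over 24 alternatives 0.00201 to 0.652), and the call also ended at equal list length and with 50% of a region covered.

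Genes that make or break down glucosylceramide, a reported substrate of ATP10B, included 3 that rose among 5 tested and none that fell. B4galt5, a lactosylceramide synthase gene, averaged 6.75 ± 0.5 and 6.25 ± 0.5 called regions in SPOPmut and 3.25 ± 0.5 and 3.75 ± 0.5 in Control, with DHT and EtOH in that order (n = 4 each, exact permutation adjusted p = 0.00325, from the smallest p the test can give). It passed in all 24 alternatives, with 1.77 the smallest difference, after the chromosome correction. Its relative B4galt6 rose by 1.5 (exact permutation adjusted p = 0.00325). With the stronger peaks the difference was -0.375 at B4galt6 and did not pass (exact permutation adjusted p = 0.270, the highest over 24 alternatives, the lowest being 0.00201).

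Of 11 scramblase genes tested 2 rose and 2 fell, where 19.4% and 12.1% of all genes did. The calcium-activated scramblase gene Ano6 rose by 4.62 (exact permutation adjusted p = 0.00325), or by 1.07 after the chromosome correction, where it did not pass (adjusted p = 0.120, over 24 alternatives 0.0022 to 0.120). Plscr2 rose by 1.62 (exact permutation adjusted p = 0.018). Ano4 fell by 2.25 (exact permutation adjusted p = 0.0211) and Xkr5 by 1.0 (adjusted p = 0.0419, and 0.0536 to 0.0559 without any one of SPOPmut DHT libraries 1, 2 and 3 and Control DHT libraries 1, 3 and 4). Under the replicate block the calls at Plscr2, Ano4 and Xkr5 ended (exact permutation adjusted p = 0.0972, 0.0633 and 0.0972). Of 7 ABC transporter genes tested Abca4 rose by 3.5 (exact permutation adjusted p = 0.00784) and Abca7 by 1.0 (adjusted p = 0.00325). Both passed in all 24 alternatives.

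With DHT, 2 of the 33 genes changed, both ABC transporter genes and both lower, where 5.41% of all genes were higher and 3.14% lower. Abca12, the lipid transporter of the skin barrier, averaged 14.8 ± 0.5 called regions with DHT and 16.8 ± 1.26 with EtOH in SPOPmut, and 14.0 ± 1.41 with DHT and 17.0 ± 0.816 with EtOH in Control (n = 4 each, exact permutation adjusted p = 0.0417). Abca3, a transporter of surfactant lipids, averaged 4.25 ± 0.5 with DHT and 5.0 ± 0 with EtOH in SPOPmut, and 3.75 ± 0.5 with DHT and 5.0 ± 0 with EtOH in Control (exact permutation adjusted p = 0.0288). Abca12 did not pass in 6 of 24 alternatives and Abca3 in 4, with exact permutation adjusted p from 0.00613 to 0.176 and from 0.00571 to 0.893; the 6 include leaving out SPOPmut DHT library 2 (0.0515), Control EtOH library 1 (0.0548) or Control EtOH library 3 (0.0538).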

How the data were processed

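ATAC-seq peak lists of 16 libraries (4 groups of 4) were used as deposited. Per the submitters' processing notes, the build was mm10 and the tools Bowtie2 2.3.4.1, SAMtools 1.8 and Genrich (version not stated), and each library has its own list. In these lists the authors deposited a score per peak (not used), a signal value (smallest in any list 200) and a -log10 p, which served only to filter or rank peaks within a list. Without read counts the depth is unknown, and list lengths are given in place of counting intervals. Signal tracks pooled over replicates were not used.

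Merging peaks with an overlap of 1 bp or more gave 86616 regions. A region was called in a library where a peak overlapped it, and 80352 called in at least 2 libraries were tested. Each was assigned to the nearest protein-coding gene body of RefSeq GRCm38.p6 within 100 kb (73249 regions). Called regions per library were counted for 11212 genes with at least 2 tested regions. DHT and genotype were tested by exact two-sided permutation within the other factor (4900 arrangements, smallest p 0.000408), single regions by an exact stratified test, and the difference of the DHT effects by permuting treatment within genotype, with Benjamini-Hochberg adjustment over all genes or regions at 0.05. Between single groups no p can be below 0.0286, so separated regions were counted without a test. Ranks are percentiles of -log10 p among the 39300 regions called in all libraries; they move with depth and are a description.

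The scripts were tested on simulated data. Python 3.11.15, NumPy 2.4.6, pandas 2.3.3, SciPy 1.17.1 and Matplotlib 3.10.9 were used. Replicate numbers showed no clear pairing of calls: over 16 pairs with the same number, deviations from group means correlated at -0.11 to 0.0973. Of the 16, 6 correlated best with their own number. Library 2 nonetheless had the shortest peak list of every group, and whether libraries with the same number shared a batch was not tested. No libraries were duplicates (6.12% to 12.5% of calls differed within groups). The genes, marker and pathway lists, motifs and tests were chosen with earlier results of these data known. The rule for named genes takes all 9 flippase genes, every Atp10b region, other members' separated regions and their strongest region, the neighbours of Atp10b, the 5 genes most like it, and up to 4 genes per pathway list that passed. Of 51 pathway genes 50 were in the gene table. A few genes that the rule takes are counted but not reported here. Alternatives covered peak signal, list length, overlap, single-library regions, a 25 kb limit, scaling, the replicate block and each library left out.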

Additional observations from a re-analysis of the deposited data

Results flagged for a closer look

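Of 28 groups of 4 libraries (7 genes by 4 groups), 8 held a library whose count of called regions stood apart from the other 3. The rule divides the gap to the nearest value by the range, and its rate of 1 in 20 is for continuous values. With whole counts it flags every group in which 3 libraries tie and 1 differs, so the 8 are not read as an excess. In each case 3 libraries had the same count and the other differed by 1 region. At Atp10b, SPOPmut DHT library 4 had 3 called regions and the other 3 libraries had 2. At Atp8a1, library 3 of SPOPmut with DHT had 7, as did library 3 of SPOPmut with EtOH and library 3 of Control with DHT, where the others had 6, and Control EtOH library 2 had 7, where the others had 8. At Atp8b2, SPOPmut DHT library 1 had 3, and library 2 had 2 in Control with DHT and in Control with EtOH. Library 2 had the shortest list of every group. It held 58800 peaks in SPOPmut DHT, 60661 in SPOPmut EtOH, 58038 in Control DHT and 57245 in Control EtOH. SPOPmut DHT library 4 had the longest list of all (69644), and library 3 the longest in each of the other groups.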

How the results depend on the processing

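Sequencing depth is unknown, so a region not called in a library may lie just under the caller's limit, which bears on weak regions such as those of Atp10b. The Atp10b genotype difference kept its direction in all 24 alternatives run: -6.75 with peaks of at least 2 times the smallest signal, -9.0 at equal list length, -9.25 within 25 kb and -10.96 to -9.75 with 1 library left out. With the stronger peaks 5 rather than 10 of its regions were lost in EtOH. The Atp8b1 difference was 5.25 at equal list length, 10.1 with 50% of a region covered and 3.75 within 25 kb. Its gained regions between genotypes were 5 and 6 in DHT with the stronger peaks and with 50% cover, and 1 in EtOH with the stronger peaks; with DHT in SPOPmut 1 was gained at equal list length.

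Over all genes, the count for DHT (959) was 2306 as a share of called regions (1340 higher) and 2394 after the chromosome correction (1379 higher); the cause was not tested. Under the replicate block it was 0 for genes and 0 for regions, where the smallest p is 0.0078, and it ended no DHT call of a flippase gene, since none passed without it. Of the 33 pathway genes 6 rose and 0 fell between genotypes under the replicate block, against 11 and 2 without it, the calls at Atp9a, Atp8b4, Tmem30b and Atp13a2 being among those that ended, and 0 passed with DHT, against 2 without it. The genotype count (3527) was 5500 after the chromosome correction (2690 higher) and 1838 under the replicate block. The difference of the DHT effects passed at 573 genes, none of them a flippase gene, after the mean DHT effect was subtracted. With 1 library left out, calls ran from 957 to 1107 genes and 1450 to 1514 regions for DHT, 3578 to 3783 genes for genotype and 0 for the difference; separated regions ran from 5362 to 6197 (DHT in SPOPmut), 3925 to 5090 (DHT in Control), 8539 to 9822 (genotype in DHT) and 7390 to 8764 (genotype in EtOH).

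Small differences of the flippase genes changed direction. With the stronger peaks DHT minus EtOH was -0.25 at Atp8b1, -0.125 at Atp8b2 and -0.25 at Atp11b, and the difference of the DHT effects -0.5 at Atp8a1 and -0.75 at Atp11a. With 50% cover Atp11b had -0.375 for DHT, -0.25 for the difference of the effects and -0.125 for genotype. Within 25 kb the difference of the effects was -0.5 at Atp8b1 and the genotype difference 0.25 at Atp11a. The Atp11b genotype difference was -0.0295 as a share and -0.288 after the chromosome correction. Of the pathway genes that passed, Atp8b4 was -0.625 with the stronger peaks and -0.375 with 50% cover, and B4galt6 -0.375 with the stronger peaks.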
